A study of Mus musculus with 11 samples.

Results

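Among the genes counted in facial processes of E10.5 mouse embryos are 37 that carry out apoptosis or belong to the p53 response. They were chosen by name, from the BCL2 family, the caspases, the death receptors and the p53 pathway, and make up 37 of the 38561 genes in the count files. They were described in 3 groups, namely 11 p53 genes, 19 pro-apoptotic genes and 7 anti-apoptotic genes. A total of 36 passed the filter on low counts and were tested; the exception was *Fas*, a death receptor gene, which lay between 0.0893 and 0.436 CPM in the 11 libraries. CPM stands for counts-per-million, in which each count is divided by the sum of counts in that library, after scaling by TMM, a factor that corrects for differences in RNA composition.

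The tissue was the mandibular and maxillary branchial arch together with the nasal processes, the swellings that fuse to form the face. Total RNA was sequenced from wild-type embryos (wt, 2 libraries) and from homozygous mutants of *Rspo2* (Rspo2KO, 3 libraries), of *Wnt9b* (Wnt9bKO, 3 libraries) and of both genes (DKO, 3 libraries). *Wnt9b* encodes a WNT ligand of the facial ectoderm, and *Rspo2* encodes an R-spondin, a secreted protein that strengthens WNT signaling. All groups shared the age and a mixed strain background. By the labels the mutants were homozygous, with no restriction to a tissue named; the counts of *Rspo2* and *Wnt9b* given with the other measures of the libraries do not bear the label out in every library. It is not stated which *Rspo2* null allele was used for sequencing, nor whether a library held 1 embryo or a pool, and p-values here measure only the spread between these libraries.

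Apoptosis is a programmed death that sculpts many embryonic tissues, including the neural crest and the epithelia that meet when facial processes fuse. In its mitochondrial pathway, BH3-only proteins sense damage and release the effectors BAX and BAK, which perforate the outer mitochondrial membrane unless anti-apoptotic BCL2 proteins hold them. Cytochrome c then assembles with APAF1 into the apoptosome and activates caspase-9, while death receptors activate caspase-8 from the cell surface. The transcription factor p53 links both routes to DNA damage and other stress: it induces *Cdkn1a*, *Bax*, *Bbc3*, *Mdm2* and other genes, and the product of *Mdm2* marks p53 for degradation. Much of this control acts on proteins, which RNA counts do not measure.

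Several measures of the libraries differed between the groups. *Rspo2* lay between 14.8 and 16.0 CPM in wt and between 4.74 and 6.59 CPM in Rspo2KO, but it spanned 2.86 to 22.8 CPM in Wnt9bKO and 3.68 to 15.5 CPM in DKO, so that the libraries labelled Wnt9bKO 2 and DKO 3 went against their labels. *Wnt9b* was not lower in its mutants, with 10.8 to 13.4 CPM in wt, 16.2 to 23.3 CPM in Wnt9bKO and 18.3 to 20.2 CPM in DKO; whether its reads came from the deleted part is not known. *Xist*, which is expressed from the inactive X chromosome of females, lay between 680 and 1469 CPM in wt and DKO and below 2 CPM in Rspo2KO and Wnt9bKO, so that sex and genotype cannot be told apart where Rspo2KO or Wnt9bKO is compared with wt or DKO, nor in the interaction. The pair DKO and wt was alike in *Xist*, and so was the pair Rspo2KO and Wnt9bKO. The 6 markers of facial mesenchyme were detected in every library. They summed to 949.7 to 1030 CPM in wt, 687.3 to 767.9 CPM in Rspo2KO and 794.6 to 886.0 CPM in DKO. Rspo2KO and DKO thus lay below wt, while Wnt9bKO spanned it at 647.2 to 1228 CPM. None of the 6 was significantly different from wt in any mutant. Against wt, 5 of the 6 had a negative log2 fold change in Rspo2KO and 3 in DKO. Embryonic globin and other erythroid markers summed to 3940 to 5757 CPM in the 5 wt and Rspo2KO libraries and to 1740 to 2846 CPM in the 6 libraries labelled Wnt9bKO or DKO. Macrophage markers likewise summed to 31.6 to 40.7 CPM against 17.5 to 28.4 CPM, and forebrain and eye markers to 42.4 to 67.9 CPM against 72.9 to 136.8 CPM. Small nuclear RNA genes summed to 351.9 to 419.6 CPM against 70.1 to 82.7 CPM. Endothelium markers summed to 117.2 to 125.9 CPM in wt and to 138.5 to 164.3 CPM in the 9 mutant libraries. These 4 markers did not move together: against wt, 2 were significantly higher and 1 significantly lower in both Wnt9bKO and DKO. In Rspo2KO, 2 had a positive and 2 a negative log2 fold change. Neuron markers summed to 307.2 to 449.9 CPM in Wnt9bKO, below all other groups (503.7 to 663.4 CPM). Muscle markers summed to 30.28 CPM in wt 1 and to 4.405 to 8.196 CPM in the other 10 libraries. Surface epithelium markers overlapped between all groups, at 180.5 to 219.7 CPM. All 6 erythroid, 5 macrophage, 5 forebrain and eye, 4 endothelium, 6 neuron and 5 surface epithelium markers had counts in every library, while 1 of the 5 muscle markers was at 0 in Wnt9bKO 2. The part of these measures in the results on apoptosis and p53 genes was not tested. In bulk tissue, fewer cells of a type and less RNA per cell cannot be told apart.

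The promoters were searched for a part of the sequence that p53 binds. That sequence, the p53 response element, is a pair of 10-base units, and a single unit was searched in RefSeq promoter windows from 250 bases before to 50 bases after a transcription start on GRCm38.p6. The unit reads the same on both strands, so 1 search covers both. Windows were found for 31 of the 37 genes (43 windows), and 8 of the 43 (18.6%) held a unit, against 8.36% of all 32851 windows. The windows of *Aen* overlap and share 1 unit, so that by gene it was 7 of 31 (22.6%), against 9.55% of all 27025 genes with a window. The 8 windows belong to *Aen*, *Bax*, *Birc2*, *Ccng1*, *Cdkn1a*, *Mdm2* and *Trp53*. The list was chosen in part for known p53 targets, so these shares are not independent of that choice and are a description. A pair of units with at most 13 bases between them was found in 1 window, the upstream one of *Cdkn1a*, against 24 (0.0731%) of all windows. A match is a description of the letters and not of binding. Only exact matches to the unit were counted, so near matches, including any directly beside a marked unit, are left in small letters. The marked pair of *Cdkn1a* is thus not shown to be the element that p53 uses. Sites outside these windows were not searched, so a window without a unit does not show that the gene lacks one. The windows of these genes were also richer in CpG, with a median of 21 CpG per window against 7 over all windows. The sequences upstream of the start are shown for *Cdkn1a*, *Trp53* and *Mdm2*, whose transcripts changed, and for *Casp6*, which fell and held no unit in its window. All are written 5′ to 3′ on the strand of the gene, with the p53 units in capitals.
Cdkn1a: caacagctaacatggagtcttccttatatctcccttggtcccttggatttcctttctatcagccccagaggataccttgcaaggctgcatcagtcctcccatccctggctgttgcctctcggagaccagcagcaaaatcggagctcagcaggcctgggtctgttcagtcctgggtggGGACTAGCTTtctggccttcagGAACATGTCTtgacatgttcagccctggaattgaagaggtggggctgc
Trp53: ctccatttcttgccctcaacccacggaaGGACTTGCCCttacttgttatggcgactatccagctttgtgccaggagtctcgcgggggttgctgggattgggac
Mdm2: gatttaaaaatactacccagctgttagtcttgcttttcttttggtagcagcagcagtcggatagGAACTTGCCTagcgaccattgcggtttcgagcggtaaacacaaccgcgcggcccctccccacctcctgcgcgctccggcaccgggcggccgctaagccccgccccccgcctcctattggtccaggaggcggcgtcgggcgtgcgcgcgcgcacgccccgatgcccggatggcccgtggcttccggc
Casp6: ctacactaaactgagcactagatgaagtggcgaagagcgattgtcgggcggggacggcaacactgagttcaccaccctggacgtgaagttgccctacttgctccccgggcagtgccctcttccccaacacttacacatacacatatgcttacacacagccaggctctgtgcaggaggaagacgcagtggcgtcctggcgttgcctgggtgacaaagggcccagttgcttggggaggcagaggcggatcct
The sequence of *Cdkn1a* is chr17:29090729-29090975 on the plus strand, that of *Trp53* chr11:69580256-69580358 on the plus strand, that of *Mdm2* chr10:117710759-117711008 on the minus strand and that of *Casp6* chr3:129901165-129901414 on the plus strand. In *Cdkn1a* the units began 73 and 51 bases before its upstream start. A second window of *Cdkn1a*, chr17:29093519-29093818, held no unit. In *Trp53* the unit began 75 bases before the start and in *Mdm2* 186 bases before it. Bases further upstream of *Trp53* belong to an exon of its neighbor *Wrap53* and are not shown.

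Levels in wt were compared per kilobase of exon. *Mcl1*, an anti-apoptotic BCL2 gene whose protein turns over rapidly, was the highest at 58.2 CPM per kb. It was followed by the effector gene *Bax* at 31.2, the cytochrome c gene *Cycs* at 23.0, the cyclin G1 gene *Ccng1* at 21.8, the second effector gene *Bak1* at 20.5 and the anti-apoptotic *Bcl2l1* at 17.1 CPM per kb. *Cycs*, *Ccng1* and *Bak1* were close to each other in this order, and 2 wt libraries do not resolve such neighbors. *Trp53* itself stood at 12.5 CPM per kb. The low end held *Tnfrsf10b* at 1.85, *Zmat3* at 1.79, *Bik* at 0.754 and *Fas* at 0.0510 CPM per kb. The damage-induced BH3-only genes *Bbc3* and *Pmaip1* were also low, at 3.16 and 2.67 CPM per kb.

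**Figure D1:**
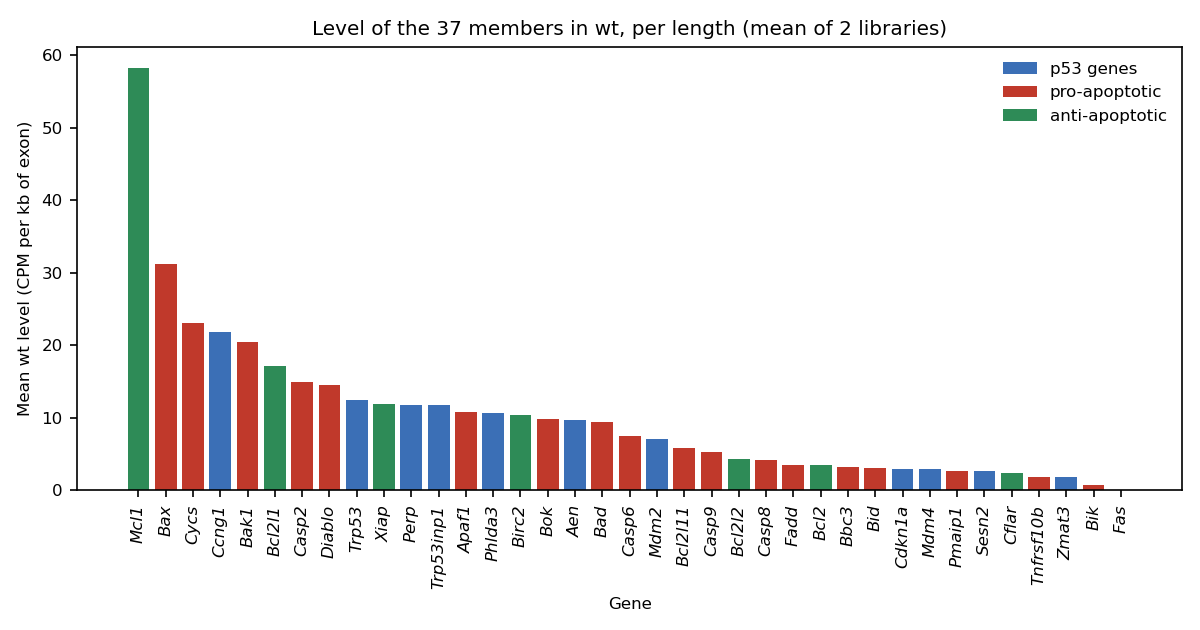
Mean level of each of the 37 genes in the 2 wt libraries, in CPM per kb of exon, as bars from 0 in descending order and colored by group. *Mcl1* (58.2 CPM per kb) stands above the effector gene *Bax* (31.2 CPM per kb), and *Fas* (0.0510 CPM per kb) is the lowest.

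To ask whether loss of *Wnt9b*, *Rspo2* or both was accompanied by a change of these genes, each mutant was compared with wt by edgeR's quasi-likelihood test with Benjamini-Hochberg adjustment over the 17317 genes tested, and a gene was called at an adjusted p below 0.05. In Wnt9bKO, 15 of the 36 genes were called (41.7%), against 32.8% of all genes tested; 7 were higher and 8 lower, against 16.8% and 16.0% of all genes. In DKO, 12 were called (33.3%), against 27.5% of all genes; 7 were higher and 5 lower, against 14.3% and 13.1%. Called with a change of more than 1.5-fold were 10 of the 36 genes in Wnt9bKO, against 21.2% of all genes tested. In DKO 7 of the 36 met both, against 16.7%. Each of these shares was read against that of all genes, and the set as a whole was not tested. With an offset for GC content and length the split of higher to lower calls was 4 to 8 in Wnt9bKO and 4 to 6 in DKO. The share of all genes called under the offset is not given beside these counts. In Rspo2KO, edgeR called 0 of the 36, against 0.0346% of all genes; 5 had an unadjusted p below 0.05, against 11.9% of all genes, and DESeq2 called 1. The libraries of a mutant did not overlap those of wt for 24 of the 36 genes in Wnt9bKO, against 56.3% of all genes, for 14 in Rspo2KO, against 32.9%, and for 24 in DKO, against 58.1%.

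Among the p53 genes and the pro-apoptotic genes, calls went in both directions. Of the p53 genes, 6 of 11 (54.5%) were called in Wnt9bKO (4 higher, 2 lower) and 6 of 11 in DKO (4 higher, 2 lower). Of the 18 pro-apoptotic genes tested, 8 (44.4%) were called in Wnt9bKO (2 higher, 6 lower) and 5 (27.8%) in DKO (2 higher, 3 lower). Of the 7 anti-apoptotic genes, 1 (14.3%) was called in each, and it rose in both. Over all genes tested the shares were 32.8% in Wnt9bKO and 27.5% in DKO, split about evenly between higher and lower, and with so few genes in a group these shares are a description. The median log2 fold change of the pro-apoptotic genes was -0.28 in Wnt9bKO, -0.13 in Rspo2KO and -0.24 in DKO, that of the p53 genes was 0.16, -0.07 and 0.14, and that of the anti-apoptotic genes was -0.06, -0.12 and -0.08. The medians over all genes tested were 0.01, 0.00 and 0.01. All 3 mutants were compared with the same 2 wt libraries, so these columns of values are not independent.

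**Figure D2:**
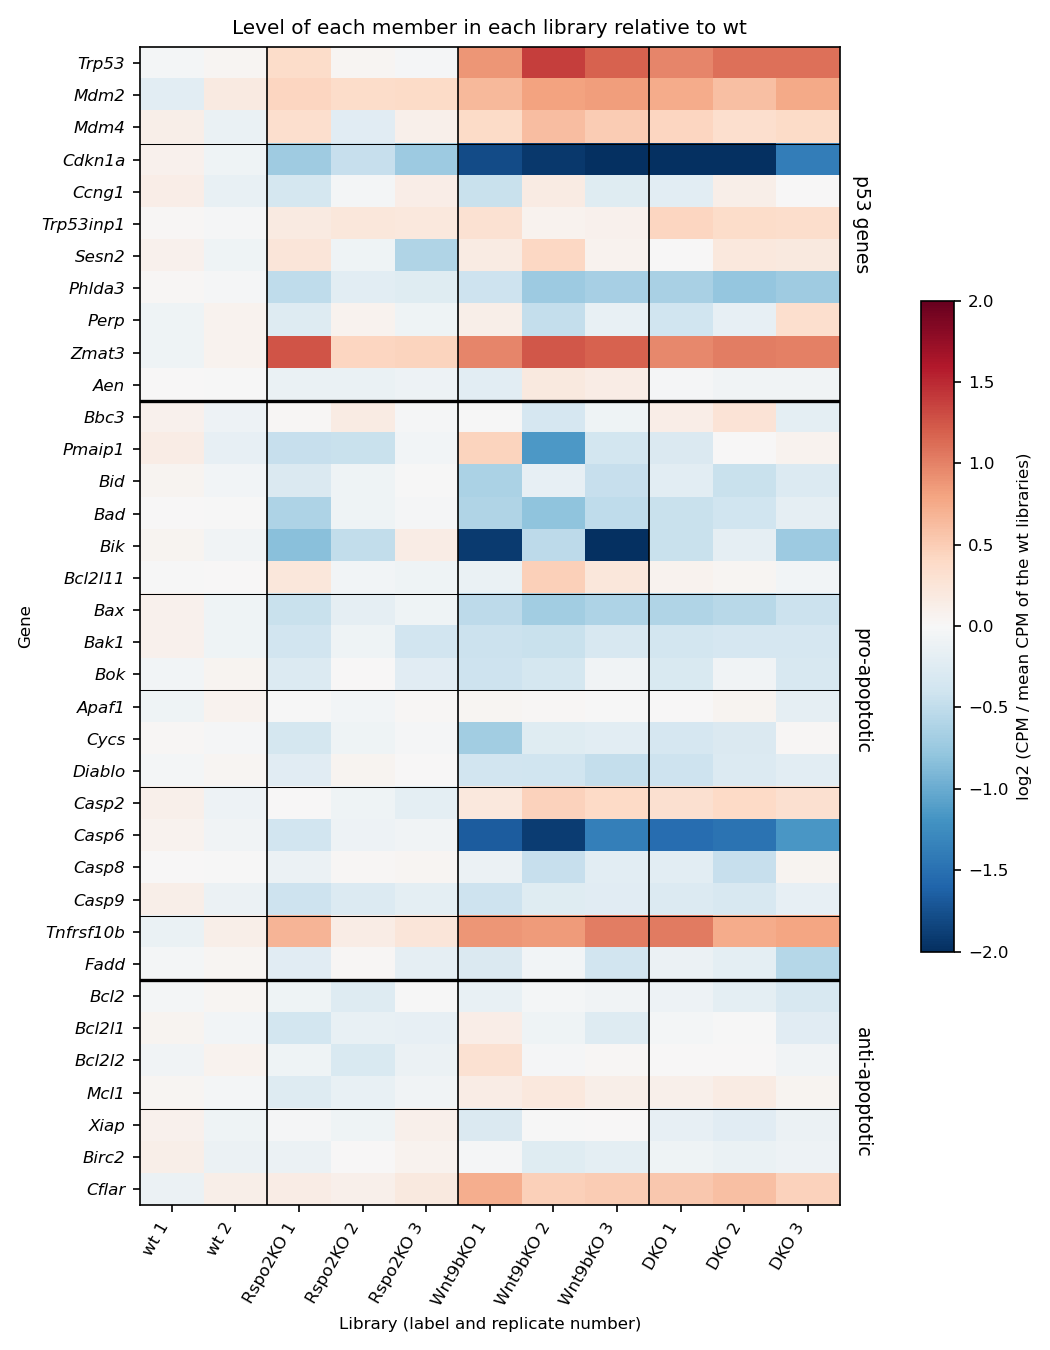
Level of the 36 tested genes in each of the 11 libraries as log2 of its CPM over the mean wt CPM, on a color scale that ends at -2 and 2. Heavy lines separate the 3 groups. *Trp53*, *Zmat3* and *Tnfrsf10b* are red and *Cdkn1a* and *Casp6* are dark blue in all 6 libraries labelled Wnt9bKO or DKO, while most other genes are pale.

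The transcript of p53 itself rose in the groups labelled with a *Wnt9b* mutation, Wnt9bKO and DKO. *Trp53* (ENSMUSG00000059552, chr11:69580359-69591873) was at 49.0 and 51.8 CPM in wt, at 65.2, 51.9 and 49.7 CPM in Rspo2KO, at 93.4, 131.9 and 114.5 CPM in Wnt9bKO and at 99.3, 108.6 and 108.2 CPM in DKO. All Wnt9bKO and DKO libraries lay above all wt and Rspo2KO libraries, and Rspo2KO overlapped wt. The log2 fold change against wt was 1.17 ± 0.15 (SE, adjusted p 8.5e-05, edgeR) in Wnt9bKO, a 2.25-fold rise, and 1.06 ± 0.15 (adjusted p 0.000196) in DKO, a 2.09-fold rise. In Rspo2KO it was 0.14 ± 0.15 (adjusted p 0.746).

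The genes for the main inhibitors of p53 were higher in Wnt9bKO, and *Mdm2* also in DKO. *Mdm2* (ENSMUSG00000020184), which encodes the ubiquitin ligase that degrades p53 and is itself a p53 target, was at 30.8 and 40.7 CPM in wt, at 48.2, 46.3 and 46.4 CPM in Rspo2KO, at 56.2, 62.4 and 63.6 CPM in Wnt9bKO and at 59.9, 54.3 and 60.8 CPM in DKO. The 3 mutant groups each lay above wt without overlap, with Rspo2KO between wt and the others. *Mdm2* rose 1.69-fold in Wnt9bKO (log2 fold change 0.76 ± 0.12 SE, adjusted p 0.000503, edgeR) and 1.62-fold in DKO (0.70 ± 0.12, adjusted p 0.00109), and its difference in Rspo2KO was 0.39 ± 0.12 (adjusted p 0.255). *Mdm4*, whose product blocks the activation domain of p53, rose in Wnt9bKO by a log2 fold change of 0.50 (adjusted p 0.0172, edgeR), a call that was lost with an offset for GC content and length, where the change was 0.19, and without wt 2 or without the libraries labelled Wnt9bKO 2 and DKO 3. In DKO it was at 0.39 (adjusted p 0.0617, edgeR), which was not called but passed in 5 of 24 alternatives.

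The targets of p53 moved in both directions. *Cdkn1a* (ENSMUSG00000023067, chr17:29090976-29100727), which encodes the cell cycle inhibitor p21 and is the best known p53 target, fell most. It was at 11.1 and 9.79 CPM in wt, at 6.37, 7.59 and 6.32 CPM in Rspo2KO, at 3.03, 2.74 and 2.58 CPM in Wnt9bKO and at 2.23, 1.99 and 4.01 CPM in DKO. Every mutant library lay below both wt libraries, and every Wnt9bKO and DKO library lay below every Rspo2KO library. The log2 fold change was -1.90 ± 0.24 (SE, adjusted p 8.06e-05, edgeR) in Wnt9bKO, which leaves 0.269 of the wt level, and -1.92 ± 0.24 (adjusted p 8.74e-05) in DKO. In Rspo2KO it was -0.62 ± 0.23 (adjusted p 0.303, unadjusted p 0.0169).

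*Zmat3*, a p53 target that encodes an RNA-binding zinc finger protein, changed in the direction opposite to *Cdkn1a*. It was at 19.4 and 21.6 CPM in wt, at 48.9, 27.6 and 27.9 CPM in Rspo2KO, at 40.2, 48.3 and 46.4 CPM in Wnt9bKO and at 40.0, 41.4 and 41.0 CPM in DKO. Each mutant group lay above wt, but the library Rspo2KO 1 stood well above the other 2 of its group. *Zmat3* rose 2.19-fold in Wnt9bKO (log2 fold change 1.13 ± 0.21 SE, adjusted p 0.00101, edgeR) and 1.99-fold in DKO (0.99 ± 0.21, adjusted p 0.00302), the latter not called without wt 1. Its difference in Rspo2KO was 0.76 ± 0.21 (adjusted p 0.221, edgeR), which DESeq2 called.

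*Phlda3*, which encodes an inhibitor of AKT kinase and is induced by p53, fell. It was at 17.0 and 16.4 CPM in wt, at 11.7, 14.4 and 14.0 CPM in Rspo2KO, at 12.6, 10.1 and 10.5 CPM in Wnt9bKO and at 10.6, 9.78 and 10.2 CPM in DKO. All mutant libraries were below wt, and Wnt9bKO overlapped Rspo2KO. The log2 fold change was -0.59 ± 0.15 (SE, adjusted p 0.00708, edgeR) in Wnt9bKO, -0.71 ± 0.15 (adjusted p 0.00311) in DKO and -0.31 ± 0.15 (adjusted p 0.419) in Rspo2KO. *Trp53inp1*, a stress-induced partner of p53 in cell death, rose in DKO by a log2 fold change of 0.38 (adjusted p 0.0122, edgeR), a call that was lost with the offset for GC content and length and without either wt library. The other 4 targets, *Ccng1*, *Sesn2* (a metabolic stress sensor), *Perp* (a desmosome protein) and *Aen* (a nuclease), were called in no comparison, and their log2 fold changes against wt ranged from -0.15 to 0.23.

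**Figure D3:**
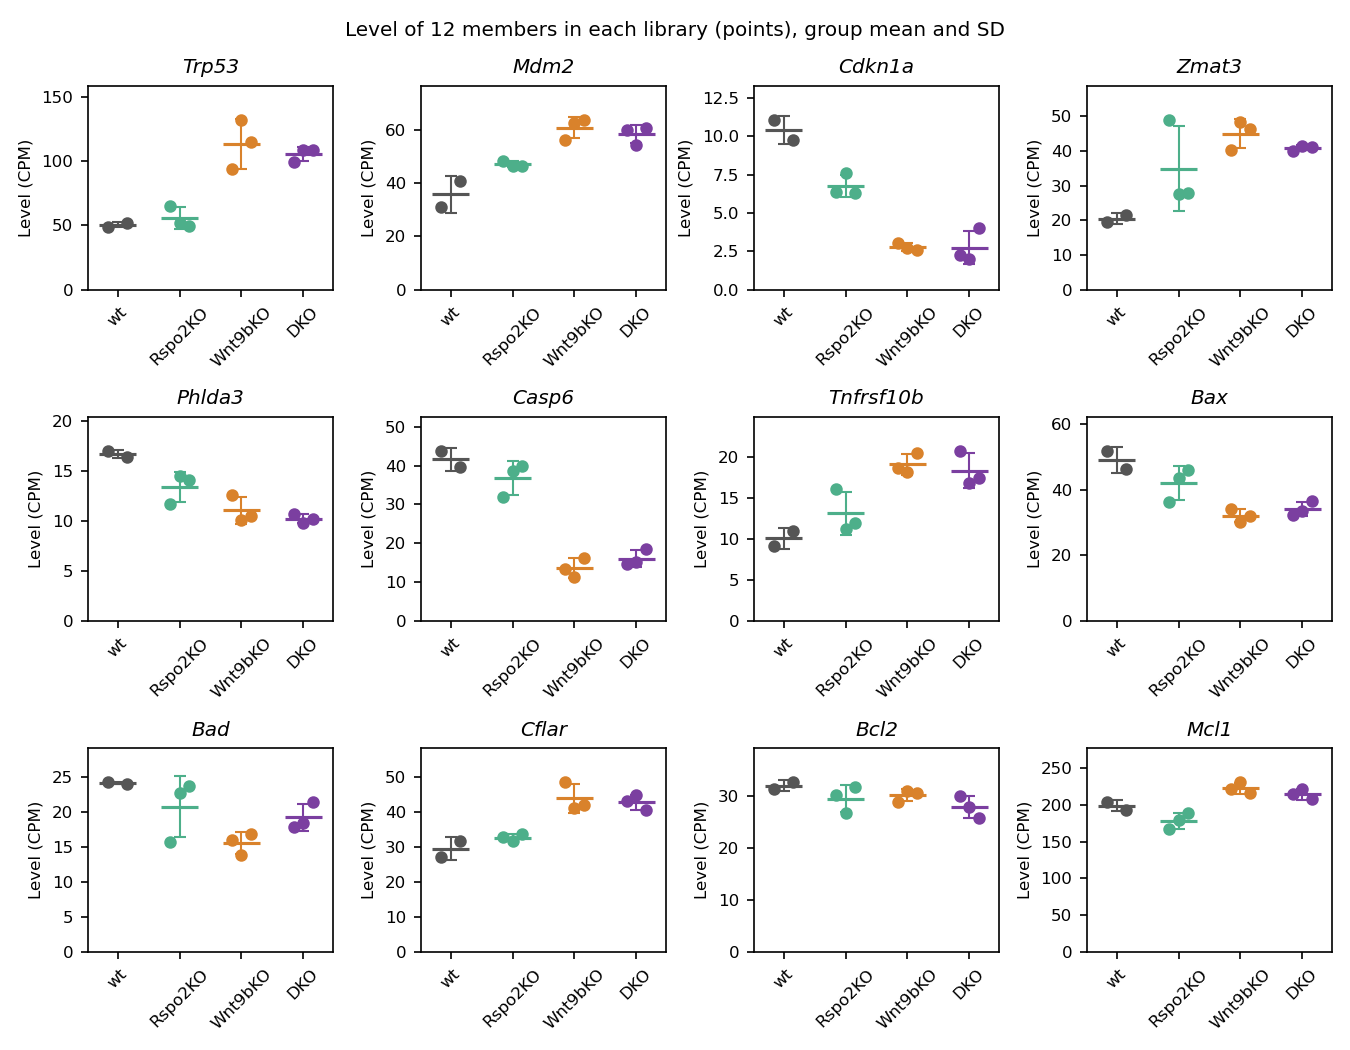
Level in CPM, on linear axes from 0, of 12 genes in each library (points), with the mean and SD of each genotype (n = 2 for wt, n = 3 for each mutant). *Trp53* and *Cdkn1a* move in opposite directions: the 6 libraries labelled Wnt9bKO or DKO lie above 93 CPM for *Trp53* and at or below 4.01 CPM for *Cdkn1a*.

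None of the 6 genes for BH3-only proteins was called higher in any comparison with all libraries. *Bbc3*, which encodes the p53-induced killer PUMA, was at 7.15 and 6.28 CPM in wt, at 6.81, 7.53 and 6.63 CPM in Rspo2KO, at 6.71, 5.31 and 6.36 CPM in Wnt9bKO and at 7.34, 8.16 and 5.89 CPM in DKO. All groups overlapped. Its log2 fold change was -0.13 ± 0.19 (SE, adjusted p 0.637, edgeR) in Wnt9bKO, 0.06 ± 0.19 (adjusted p 0.927) in Rspo2KO and 0.09 ± 0.19 (adjusted p 0.754) in DKO. *Pmaip1*, which encodes the second p53-induced BH3-only protein NOXA, ranged from 3.28 to 9.90 CPM within Wnt9bKO alone, and its differences from wt were between -0.30 and -0.05 on the log2 scale. A single library decided the value in Wnt9bKO: the log2 fold change of -0.20 became -0.70 without Wnt9bKO 1, where it was called (adjusted p 0.0493, edgeR), and 0.13 without Wnt9bKO 2.

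*Bad*, whose product is switched off by survival kinases, fell in Wnt9bKO. It was at 24.3 and 24.0 CPM in wt, at 15.7, 22.8 and 23.7 CPM in Rspo2KO, at 16.0, 13.8 and 16.9 CPM in Wnt9bKO and at 17.8, 18.4 and 21.4 CPM in DKO. All mutant libraries were below wt, and the DKO libraries were all above the Wnt9bKO libraries. The log2 fold change was -0.63 ± 0.17 (SE, adjusted p 0.00979, edgeR) in Wnt9bKO, a call that was lost without either wt library, -0.33 ± 0.17 (adjusted p 0.155) in DKO and -0.22 ± 0.17 (adjusted p 0.638) in Rspo2KO. The annotation places 20.5% of its exon bases opposite exons of *Gpr137*, and without a stated strand setting those reads cannot be assigned with certainty.

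*Bik*, a BH3-only gene of the endoplasmic reticulum, was close to the limit of detection. It was at 1.25 and 1.148 CPM in wt, at 0.674, 0.850 and 1.33 CPM in Rspo2KO, at 0.320, 0.835 and 0.240 CPM in Wnt9bKO and at 0.881, 1.06 and 0.728 CPM in DKO. The Wnt9bKO and DKO libraries lay below wt, and Rspo2KO overlapped it. The log2 fold change in Wnt9bKO was -1.36 ± 0.47 (SE, adjusted p 0.0385, edgeR), and this call was lost in 11 of 23 alternatives, among them DESeq2 and the omission of either wt library. *Bid*, which links caspase-8 to the mitochondria, and *Bcl2l11*, which encodes BIM, were called in no comparison, with log2 fold changes against wt of -0.40 to 0.21. In Wnt9bKO, *Bid* was called lower without Wnt9bKO 2 (-0.52, adjusted p 0.031, edgeR) and *Bcl2l11* higher without Wnt9bKO 1 (0.36, adjusted p 0.0453).

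Of the genes for the pore-forming effectors, *Bax* and *Bak1* were called lower in Wnt9bKO and DKO. *Bax* (ENSMUSG00000003873), a p53 target, was at 51.9 and 46.3 CPM in wt, at 36.2, 43.6 and 46.2 CPM in Rspo2KO, at 34.1, 30.2 and 31.9 CPM in Wnt9bKO and at 32.4, 33.6 and 36.7 CPM in DKO. All mutant libraries were below both wt libraries, and only Wnt9bKO lay wholly below Rspo2KO. *Bax* fell to 0.653 of the wt level in Wnt9bKO (log2 fold change -0.61 ± 0.12 SE, adjusted p 0.00178, edgeR) and to 0.697 in DKO (-0.52 ± 0.12, adjusted p 0.00623); the DKO call was lost without wt 1 and with the offset for GC content and length. In Rspo2KO the difference was -0.22 ± 0.12 (adjusted p 0.494). *Bak1* fell by log2 fold changes of -0.39 (adjusted p 0.0174, edgeR) in Wnt9bKO and -0.34 (adjusted p 0.0395) in DKO. Both calls were lost with the offset and without wt 1, among other alternatives. The Wnt9bKO call held in 17 of 24 alternatives and the DKO call in only 9 of 24. Of its exon bases, 18.2% lie opposite exons of *Ggnbp1*. *Bok*, the third of the family, was called in no comparison, at -0.27 in Wnt9bKO and -0.23 in DKO.

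Of the genes that act after the mitochondrial pore, *Apaf1*, the scaffold of the apoptosome, lay between 85.5 and 102.1 CPM in all 11 libraries, and its log2 fold changes against wt were 0.01, -0.02 and -0.04 in Wnt9bKO, Rspo2KO and DKO. *Cycs* was called in no comparison, with -0.36 ± 0.15 (SE, adjusted p 0.0836, edgeR) in Wnt9bKO, which passed in 4 of 24 alternatives, the offset for GC content and length among them. *Diablo*, which encodes the antagonist of inhibitor of apoptosis proteins, fell in Wnt9bKO by a log2 fold change of -0.42 (adjusted p 0.00826, edgeR), a call that was lost without wt 2, and was at -0.30 (adjusted p 0.0532) in DKO, which passed in 10 of 24 alternatives. Of its exon bases, 23.5% lie opposite exons of other genes.

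Among the caspases, only *Casp6* changed by more than 1.5-fold. *Casp6* (ENSMUSG00000027997, chr3:129901425-129914103), an executioner caspase that cleaves nuclear lamins, was at 43.8 and 39.6 CPM in wt, at 31.9, 38.7 and 39.8 CPM in Rspo2KO, at 13.2, 11.2 and 16.2 CPM in Wnt9bKO and at 14.5, 15.01 and 18.6 CPM in DKO. The 6 libraries labelled Wnt9bKO or DKO lay far below the other 5, and Rspo2KO overlapped wt. The log2 fold change was -1.62 ± 0.16 (SE, adjusted p 1.14e-05, edgeR) in Wnt9bKO, which leaves 0.325 of the wt level, and -1.38 ± 0.16 (adjusted p 4.57e-05) in DKO, which leaves 0.385 of it. In Rspo2KO it was -0.18 ± 0.16 (adjusted p 0.695). These falls were called in all 24 alternatives.

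*Casp2*, which encodes an initiator caspase activated by the PIDDosome, rose slightly, by log2 fold changes of 0.36 (adjusted p 0.0209, edgeR) in Wnt9bKO and 0.35 (adjusted p 0.029) in DKO; both calls were lost with the offset for GC content and length and without wt 2. *Casp9*, the initiator caspase of the apoptosome, was at 29.3 and 24.9 CPM in wt, at 20.4, 22.4 and 23.8 CPM in Rspo2KO, at 20.3, 22.9 and 23.3 CPM in Wnt9bKO and at 22.4, 21.7 and 24.1 CPM in DKO. All mutant libraries lay below wt, by a small margin. Its log2 fold change was -0.29 ± 0.12 (SE, adjusted p 0.089, edgeR) in Wnt9bKO, -0.28 ± 0.12 (adjusted p 0.382) in Rspo2KO and -0.25 ± 0.12 (adjusted p 0.148) in DKO. *Casp8*, the initiator caspase of the death receptors, was at -0.26 in Wnt9bKO and -0.19 in DKO and was called in no comparison.

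On the death receptor side, *Tnfrsf10b* rose. It encodes the mouse receptor of the ligand TRAIL and is a p53 target. Its level was 9.20 and 10.99 CPM in wt, 16.2, 11.2 and 12 CPM in Rspo2KO, 18.6, 18.2 and 20.6 CPM in Wnt9bKO and 20.8, 16.8 and 17.5 CPM in DKO. All libraries labelled Wnt9bKO or DKO lay above the other 5, although Rspo2KO 1 came close to them. The rise was 1.89-fold in Wnt9bKO (log2 fold change 0.92 ± 0.18 SE, adjusted p 0.0014, edgeR) and 1.81-fold in DKO (0.86 ± 0.18, adjusted p 0.0028), the latter not called without wt 1, and the difference in Rspo2KO was 0.37 ± 0.18 (adjusted p 0.43). *Fadd*, the adaptor between receptor and caspase, was called in no comparison, at -0.24 in Wnt9bKO and -0.28 in DKO.

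Of the anti-apoptotic BCL2 genes, edgeR and DESeq2 called 0 of 4 against wt, and 0 had an unadjusted p below 0.05 by edgeR. Of all genes tested, edgeR called 32.8% in Wnt9bKO, 0.0346% in Rspo2KO and 27.5% in DKO. An unadjusted p below 0.05 was found for 7496, 2069 and 6768 of the 17317. With only 4 genes, a count of 0 is a description. *Bcl2*, the founder of the family, was at 31.2 and 32.6 CPM in wt, at 30.03, 26.7 and 31.6 CPM in Rspo2KO, at 28.9, 30.9 and 30.5 CPM in Wnt9bKO and at 29.8, 27.7 and 25.6 CPM in DKO. Rspo2KO overlapped wt, and Wnt9bKO and DKO lay just below it. The log2 fold changes were -0.09 ± 0.11 (SE, adjusted p 0.602, edgeR), -0.12 ± 0.12 (adjusted p 0.723) and -0.20 ± 0.12 (adjusted p 0.208) in Wnt9bKO, Rspo2KO and DKO. With the offset for GC content and length, *Bcl2* was called lower in Wnt9bKO (-0.28, adjusted p 0.0487, edgeR) and in DKO (-0.38, adjusted p 0.0122). *Mcl1* was at 204.3 and 193.5 CPM in wt, at 167.0, 179.0 and 188.9 CPM in Rspo2KO, at 221.1, 231.3 and 216.6 CPM in Wnt9bKO and at 214.2, 222.2 and 207.5 CPM in DKO. It lay above wt in all Wnt9bKO and DKO libraries and below wt in all Rspo2KO libraries. None of its log2 fold changes against wt was called: 0.17 ± 0.10 (SE, adjusted p 0.213, edgeR) in Wnt9bKO, -0.16 ± 0.10 (adjusted p 0.55) in Rspo2KO and 0.11 ± 0.10 (adjusted p 0.437) in DKO. *Bcl2l1*, which encodes BCL-XL, and *Bcl2l2*, which encodes BCL-W, had log2 fold changes against wt between -0.22 and 0.10.

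The inhibitors that act on caspases held 1 change. *Cflar*, which encodes FLIP, a decoy that keeps caspase-8 inactive at death receptors, rose by log2 fold changes of 0.57 (adjusted p 0.00219, edgeR) in Wnt9bKO and 0.53 (adjusted p 0.0043) in DKO. Both calls were lost with the offset for GC content and length, under which the changes were as low as 0.30 and 0.27, and the DKO call also without wt 1. *Xiap* and *Birc2*, which encode inhibitor of apoptosis proteins, had log2 fold changes against wt between -0.16 and 0.00 and were called in no comparison. With the offset, *Xiap* was called lower in DKO against wt (-0.31, adjusted p 0.0125, edgeR) and against Rspo2KO (-0.24, adjusted p 0.0336).

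**Figure D4:**
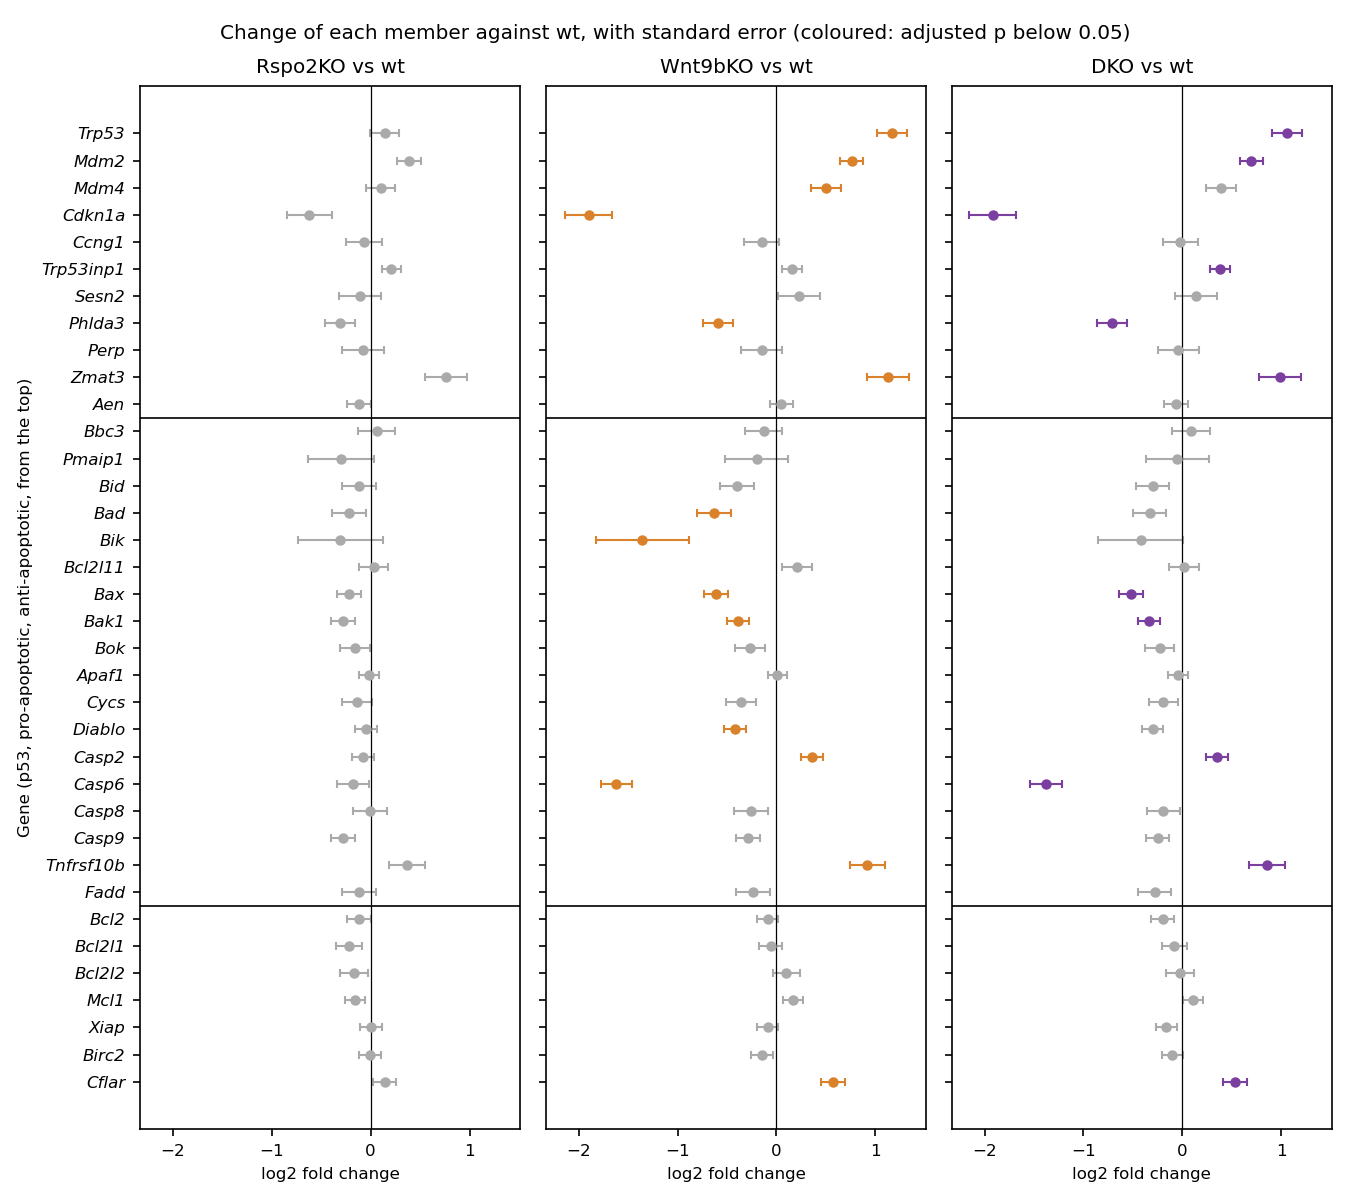
log2 fold change of the 36 tested genes against wt in each mutant (points) with its SE (bars), with genes called at an adjusted p below 0.05 in color. No gene is colored in Rspo2KO, 15 are in Wnt9bKO and 12 in DKO, with *Cdkn1a* and *Casp6* at the far left and *Trp53* and *Zmat3* at the far right.

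To ask whether loss of both genes changed this set beyond the loss of 1, DKO was compared with each single mutant. Against Wnt9bKO, edgeR called 0 of the 36, against 0.121% of all genes; 2 had an unadjusted p below 0.05, against 5.63% of all genes, and DESeq2 called 0. The 2 were *Trp53inp1*, at 0.22 ± 0.09 (SE, adjusted p 0.753, edgeR), and *Bik*, at 0.94 ± 0.43 (adjusted p 0.877). For *Trp53* the difference was -0.10 ± 0.13, for *Cdkn1a* -0.02 ± 0.24 and for *Casp6* 0.24 ± 0.15. Both libraries that went against their labels in *Rspo2* are in this comparison, Wnt9bKO 2 at 2.86 CPM and DKO 3 at 15.5 CPM. The groups as labelled therefore do not separate cleanly by *Rspo2*. By *Xist*, sex and genotype cannot be told apart in it.

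Against Rspo2KO, 7 of the 36 genes were called in DKO (19.4%), against 18.2% of all genes tested; 5 were higher and 2 lower, against 9.15% and 9.07% of all genes. For 3 of the 36 the change was both called and more than 1.5-fold, against 9.26% of all genes tested. *Trp53* was 1.90-fold higher (log2 fold change 0.92 ± 0.13 SE, adjusted p 0.000254, edgeR), and *Casp2* (0.43, adjusted p 0.00702), *Cflar* (0.39, adjusted p 0.017), *Tnfrsf10b* (0.49, adjusted p 0.0358) and *Mcl1* (0.27, adjusted p 0.046) were also higher. *Casp6* was at 0.435 of the Rspo2KO level (-1.20 ± 0.15, adjusted p 7.8e-05) and *Cdkn1a* at 0.406 of it (-1.30 ± 0.23, adjusted p 0.00136). The call of *Mcl1* was lost in 12 of 24 alternatives and that of *Tnfrsf10b* in 9 of 24, in each case with the omission of any of the 3 DKO libraries among them. *Mdm2*, at 0.31 and not called, passed in 7 of 24 alternatives, and *Phlda3*, at -0.39, in 3 of 24. Without Rspo2KO 1, *Zmat3* (0.56, adjusted p 0.00255, edgeR), *Mdm4* (0.44, adjusted p 0.0211), *Bax* (-0.39, adjusted p 0.0139) and *Diablo* (-0.33, adjusted p 0.0164) were also called. With the offset for GC content and length the split of higher to lower calls was 4 to 3, given without the share of all genes under that offset.

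The interaction, that is, the part of the DKO change that the changes of the single mutants do not add up to on the log2 scale, was called for 0 of the 36 genes by edgeR, against 0.0635% of all genes, and for 0 by DESeq2. An unadjusted p below 0.05 was found for 3, against 9.45% of all genes. They were *Zmat3* at -0.90 ± 0.27 (SE, adjusted p 0.427, edgeR), *Mdm2* at -0.45 ± 0.16 (adjusted p 0.435) and *Bad* at 0.52 ± 0.22 (adjusted p 0.496). For *Zmat3* and *Mdm2* the DKO level stood near that of Wnt9bKO although both single mutants lay above wt.

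The libraries could also be split by whether the label names a *Wnt9b* mutation. All 6 libraries labelled Wnt9bKO or DKO lay outside the range of the 5 wt and Rspo2KO libraries for 8 of the 36 genes tested. They were higher for *Trp53*, *Mdm2*, *Casp2*, *Tnfrsf10b*, *Mcl1* and *Cflar*, against 10.1% of all genes tested. They were lower for *Cdkn1a* and *Casp6*, against 10.6% of all genes. Separated either way were 8 of the 36, a share near the 20.8% of all genes tested. Each side of this split held libraries with high and with low *Xist*. The erythroid, macrophage, forebrain and eye, and small nuclear RNA sums separated the same libraries without overlap, and their part in these differences was not tested. The 7 genes called higher in Wnt9bKO had a median GC content of 47.6% and a median exon length of 7057 bases, and the 8 called lower had 57.1% and 2482 bases. In DKO the corresponding values were 47.6% and 6475 bases against 57.1% and 2407 bases. Over all genes tested, those called higher in Wnt9bKO had a median GC content of 48.7% and an exon length of 5775 bases, and those called lower had 51.6% and 3021 bases. With the offset for GC content and length, *Trp53*, *Mdm2*, *Zmat3*, *Tnfrsf10b*, *Cdkn1a*, *Phlda3* and *Casp6* were still called in both Wnt9bKO and DKO. Without the libraries labelled Wnt9bKO 2 and DKO 3, 13 genes were called in Wnt9bKO and 11 in DKO. The share of all genes called in that fit is not given here, so these counts describe the listed genes alone.

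Other genes of these pathways were taken from 2 further lists. Of 23 other apoptosis genes tested, 10 (43.5%) were called in Wnt9bKO (4 higher, 6 lower), 0 in Rspo2KO (3 with an unadjusted p below 0.05, edgeR) and 10 (43.5%) in DKO (3 higher, 7 lower), against 32.8%, 0.0346% and 27.5% of all genes. The share of all genes with an unadjusted p below 0.05 in Rspo2KO was 11.9%. The leading ones in Wnt9bKO were *Dffa* and *Pidd1*, followed by *Traf2*. *Dffa* encodes the inhibitor and chaperone of the nuclease that cuts DNA in dying cells, and was at 33.3 to 33.6 CPM in wt, at 14.8 to 17.4 CPM in Wnt9bKO (log2 fold change -1.05 ± 0.12 SE, adjusted p 3.32e-05, edgeR) and at 17.1 to 19.3 CPM in DKO (-0.89, adjusted p 0.000138). *Pidd1*, the p53-induced scaffold that activates caspase-2, was at 5.63 to 7.19 CPM in wt and at 14.6 to 16.5 CPM in Wnt9bKO (1.28 ± 0.18, adjusted p 0.000159). *Traf2*, an adaptor of tumor necrosis factor receptors, fell by -0.85 (adjusted p 0.000249) in Wnt9bKO and -0.92 (adjusted p 0.000164) in DKO. *Bmf*, a BH3-only gene, fell by -0.66 (adjusted p 0.000286) in DKO.

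Of 31 other genes of the p53 pathway tested, 6 (19.4%) were called in Wnt9bKO (1 higher, 5 lower), 0 in Rspo2KO (1 with an unadjusted p below 0.05, against 11.9% of all genes) and 4 (12.9%) in DKO (2 higher, 2 lower), against the same shares of all genes called. *Btg2*, an antiproliferative p53 target, changed by -0.64 (adjusted p 0.0017, edgeR) in Wnt9bKO, *Psrc1*, which encodes a spindle protein, by -0.45 (adjusted p 0.00854) and *Tigar*, a regulator of glycolysis, by -0.53 (adjusted p 0.0167). In DKO the leading genes were *Psrc1* at -0.45 (adjusted p 0.0106), *Trp53i11* at 0.53 (adjusted p 0.0275) and *Gadd45a*, a DNA damage response gene, at 0.92 (adjusted p 0.0282).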

How the data were processed

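Whole-number counts per Ensembl gene were deposited for 11 libraries, without normalization. By the methods of the paper, the authors trimmed single-end reads with Cutadapt (reads under 30 bp discarded), aligned them by STAR to GRCm38, assigned them to genes by HTSeq-Count and used DESeq2 for comparisons; versions and the strand setting are not given in the sources used here. The paper's methods state 3 samples per genotype, whereas the labels give 2 for wt. Total counts ranged from 11136166 to 18017344 and counts on the 37 genes from 18499 to 30431 per library. TMM factors lay between 0.9152 and 1.096. Reads not assigned to a gene were not analysed here.

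Groups and replicate numbers came from the sample labels, and all libraries were kept under them. Replicates of a group differed by more than sampling noise (chi-square per degree of freedom 5.28 to 35.42). Genes were filtered with filterByExpr on genotype, and edgeR 4.0.16 (R 4.3.3, limma 3.58.1) fitted a mean per genotype to all 11 libraries. Mutants were compared with wt, DKO with either single mutant, and the interaction was tested. Adjusted p-values are by the Benjamini-Hochberg method over 17317 genes. GENCODE M21 gave names, positions, lengths and GC content for 36723 of 38561 genes, and RefSeq on GRCm38.p6 gave the promoters. Python 3.11.15 with numpy 2.4.6, pandas 2.3.3 and matplotlib 3.10.9 was used for tables and figures.

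The 37 genes, the other lists and the alternatives were chosen with earlier results of these data known. Values in every library are given for genes called with a change of more than 1.5-fold in any pairwise comparison and for *Trp53*, *Mdm2*, *Cdkn1a*, *Bbc3*, *Bax*, *Bcl2*, *Mcl1* and *Casp9*; other called genes are given by their log2 fold change. From the 2 lists of other pathway genes, the 3 with the smallest p among the called genes are named per comparison with wt, and further markers and *Rspo2*, *Wnt9b* and *Xist* are given in ranges. As alternatives, DESeq2 1.42.0 replaced edgeR, and RLE or upper-quartile factors replaced TMM. The filter was dropped or set to 10 counts or more per library, and the fit was limited to the groups compared or given a replicate block. A loess offset for GC content and length (span 0.3) was used with and without that block. Calls were also made by an unadjusted p with a 1.5-fold change, by glmTreat against 1.5-fold, on autosomal protein-coding genes alone, without the libraries labelled Wnt9bKO 2 and DKO 3, and without each library in turn.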

Additional observations from a re-analysis of the deposited data

Results flagged for a closer look

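*Mcl1* was marked because its 3 Wnt9bKO and 3 DKO libraries all lay above wt while its 3 Rspo2KO libraries all lay below wt. Its log2 fold changes against wt were 0.17 in Wnt9bKO, -0.16 in Rspo2KO and 0.11 in DKO, and edgeR called none of them. The difference between DKO and Rspo2KO was tested directly and was 0.27 ± 0.09 (SE, adjusted p 0.046, edgeR), past the threshold in 12 of 24 alternatives. That test used the same values by which *Mcl1* was marked, so it is not independent of the marking. By *Xist*, sex and genotype cannot be told apart in it. The difference between Wnt9bKO and Rspo2KO was not tested.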

How the results depend on the processing

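Of the calls against wt, those of *Trp53*, *Cdkn1a* and *Casp6* in Wnt9bKO and DKO and of *Zmat3* in Wnt9bKO held in all 24 alternatives, as did those of *Cdkn1a* and *Casp6* between DKO and Rspo2KO. The cause of the calls lost or gained under the alternatives was not tested. Against a 1.5-fold threshold (glmTreat), 4 genes were called in Wnt9bKO, 3 in DKO and 2 between DKO and Rspo2KO, in place of 15, 12 and 7. Where no number over all genes stands beside a count under an alternative, the count describes the listed genes alone. It does not show whether they differ from all genes under that alternative. With an unadjusted p and a 1.5-fold change, 2 were called in Rspo2KO, 7 in DKO, 1 between DKO and Wnt9bKO and 3 between DKO and Rspo2KO, and with an unadjusted p alone 3 for the interaction. Over all 17317 genes tested, the numbers in the same order were 811, 3540, 508 and 2107, and 1636 for the interaction. In Rspo2KO, DESeq2 called 1 and the fit without a filter 1, and without a filter the interaction was called for 1. Leaving out 1 library at a time gave 10 to 16 calls in Wnt9bKO (10 without wt 2), 5 to 14 in DKO (5 without wt 1, the library with the high muscle marker sum) and 4 to 11 between DKO and Rspo2KO (4 without Rspo2KO 2, DKO 1 or DKO 2, and 11 without Rspo2KO 1), and 0 in the other comparisons. *Bbc3*, uncalled throughout, changed sign without some libraries, with log2 fold changes from -0.03 to 0.16 in Rspo2KO and -0.02 to 0.21 in DKO.

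Whether libraries with the same replicate number belong together is not known. Their deviations correlated at -0.11 to 0.24 (15 pairs, median 0.07), against -0.19 to 0.11 for different numbers (30 pairs, median -0.02). Of 11 libraries, 9 correlated more, on average, with libraries of their own number. With the number as a block, the counts of calls were 15 in Wnt9bKO, 0 in Rspo2KO, 12 in DKO, 0 between DKO and Wnt9bKO, 7 between DKO and Rspo2KO and 0 for the interaction, as without it, but not for the same genes: *Bik* in Wnt9bKO (adjusted p 0.0534, edgeR) and *Bak1* in DKO (0.0556) were lost, and *Cycs* in Wnt9bKO (0.01) and *Diablo* in DKO (0.0396) were gained. The wt group has only 2 libraries, and leaving out 1 of them moved the counts against wt most. Genes near 1 CPM, such as *Bik*, are limited by depth.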
